A study of Mus musculus with 2 samples.

Results

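Retinoic acid signalling genes were followed across the cell classes of the embryonic mouse forebrain. The set held 9 genes of 32285 in the count matrices: the nuclear receptor genes Rara, Rarb, Rxra and Rxrg, the synthesis genes Aldh1a2 and Aldh1a3, the binding protein genes Crabp1 and Crabp2, and the breakdown gene Cyp26b1. They were taken by symbol, and each symbol occurred once. Single-cell RNA sequencing had been done on dissociated dorsal telencephalon, labelled brain hemispheres, of WT mouse embryos at embryonic day 16.5, with 10x Genomics single cell 3' v3.1 chemistry. The series concerns a conditional loss of Dot1l, which encodes a histone methyltransferase, through the Emx1-Cre driver, active in dorsal telencephalic progenitors and their progeny. The conditional knockout was not analysed here, and both libraries used here carry the genotype label WT, without further alleles being named. They are called WT replicate 1 and WT replicate 6, and paired values below are always in that order. Whether a library came from 1 embryo, and whether the embryos shared a litter, is not given in the sources used here. The p-values therefore measure only the spread between these 2 libraries, which may be technical.

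Retinoic acid is made from vitamin A. Retinol is carried into cells and oxidised to retinaldehyde, and retinaldehyde dehydrogenases such as ALDH1A2 and ALDH1A3 turn retinaldehyde into retinoic acid. CRABP1 and CRABP2 bind retinoic acid in the cytoplasm, CRABP2 being known for delivering it to the nucleus, and the cytochrome CYP26B1 breaks it down. In the nucleus, retinoic acid receptors (RARs) and retinoid X receptors (RXRs) bind DNA as heterodimers at pairs of short direct repeats. The meninges are a known source of retinoic acid for the embryonic cortex, and the lateral ganglionic eminence, where striatal projection neurons are born, is another. RARB is needed for the normal development of striatal projection neurons, and Rarb is itself a textbook target of retinoic acid.

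The target sequence that gives Rarb this property is shown because the striatal and meningeal results turn on Rarb. On the mm10 assembly, which the submitters' processing notes name and whose RefSeq form is GRCm38.p6, Rarb spans chr14:16430839-17082331. Promoter windows of 300 bases, from 250 bases before to 50 after a transcript start, were available from RefSeq for 7 of the 9 genes. Each window was searched on both strands for DR5 elements, a pair of half-sites in the same direction with 5 bases between them. Allowed half-sites were AGGTCA, which is the consensus, AGTTCA, which occurs in both elements shown, GGGTCA, which is a related form, and GGTTCA, which begins the Rarb element, in any combination. The allowed letters include both half-sites of the known Rarb element, so the match in the Rarb window was fixed by that choice and is no result of the search. None of the other windows of the 7 genes, which had 12 in all, held a match. Of all 32851 windows, 0.0974% held one. The 250 bases before a Rarb start at which an internal promoter lies (GRCm38.p6, chr14:16575477-16575726, minus strand, written 5′ to 3′) are given with the half-sites in capitals.
Rarb promoter: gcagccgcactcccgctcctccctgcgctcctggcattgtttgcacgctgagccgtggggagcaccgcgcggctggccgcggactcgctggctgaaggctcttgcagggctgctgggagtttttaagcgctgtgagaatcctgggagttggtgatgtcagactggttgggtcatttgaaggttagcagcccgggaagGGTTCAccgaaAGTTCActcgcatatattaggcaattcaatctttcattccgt
The element lay 53 to 37 bases before the start. Among other genes of the pathway, the window of Cyp26a1, a second retinoic acid-degrading enzyme and textbook target, held a DR5 element as well, 32 to 16 bases before its start (GRCm38.p6, chr19:37697776-37697792), on the strand opposite to the gene. Both elements are set side by side with half-sites in capitals.
Rarb element: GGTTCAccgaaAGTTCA
Cyp26a1 element: AGTTCAcccaaAGTTCA
The same half-sites spaced 2 or 1 bases apart occurred in 0.268% and 0.222% of all windows and in none of the windows of the 7 genes, whereas a single half-site occurred in 43.7% of all windows. A match to these letters is a description of the sequence and not evidence of binding. The other genes lie at chr11:98927800-98974942 (Rara), chr2:27676445-27763319 (Rxra), chr1:167598362-167639623 (Rxrg), chr9:71215789-71296243 (Aldh1a2), chr7:66390892-66427477 (Aldh1a3), chr9:54764748-54773110 (Crabp1), chr3:87948693-87953372 (Crabp2) and chr6:84571414-84593908 (Cyp26b1) on the same assembly.

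The libraries held 14136 and 13046 cell barcodes with 74930397 and 68964234 UMIs (unique molecular identifiers, each standing for 1 captured mRNA molecule). Between 1500 and 60000 UMIs, of which under 10% mitochondrial, were asked of a cell, which kept 8139 and 8209 cells. Cells were placed in classes by marker genes that included none of the 9 genes, and 52.0% and 56.4% of kept cells passed a gate. Of the marker lists, the 7 fibroblast markers summed to 6433 and 6635 CPM (counts per 1000000 UMIs of the class) in fibroblast-gated cells and to at most 10.3 CPM in striatal neurons, cortical interneurons, excitatory neurons and cortical progenitors. The 12 striatal markers summed to 4256 and 4724 CPM in striatal neurons, against 23.7 and 52.7 CPM in cortical interneurons. The gates asked for these same markers in one class and limited them in the others. These separations were therefore set by the gates and are no independent check of the classes. Globin genes and Alas2, markers of red blood cells, summed to between 1245 and 13095 CPM in every class of the comparisons, and erythroid and microglial cells served as the measure of background from free RNA. In an erythroid cell at least 50% of UMIs had to be globin. Other genes were thus sampled less deeply there, also after thinning, and erythroid values can understate the background. The microglial gate was led by Pf4 and Mrc1 as well as C1q genes, so it also held macrophages.

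**Figure D1:**
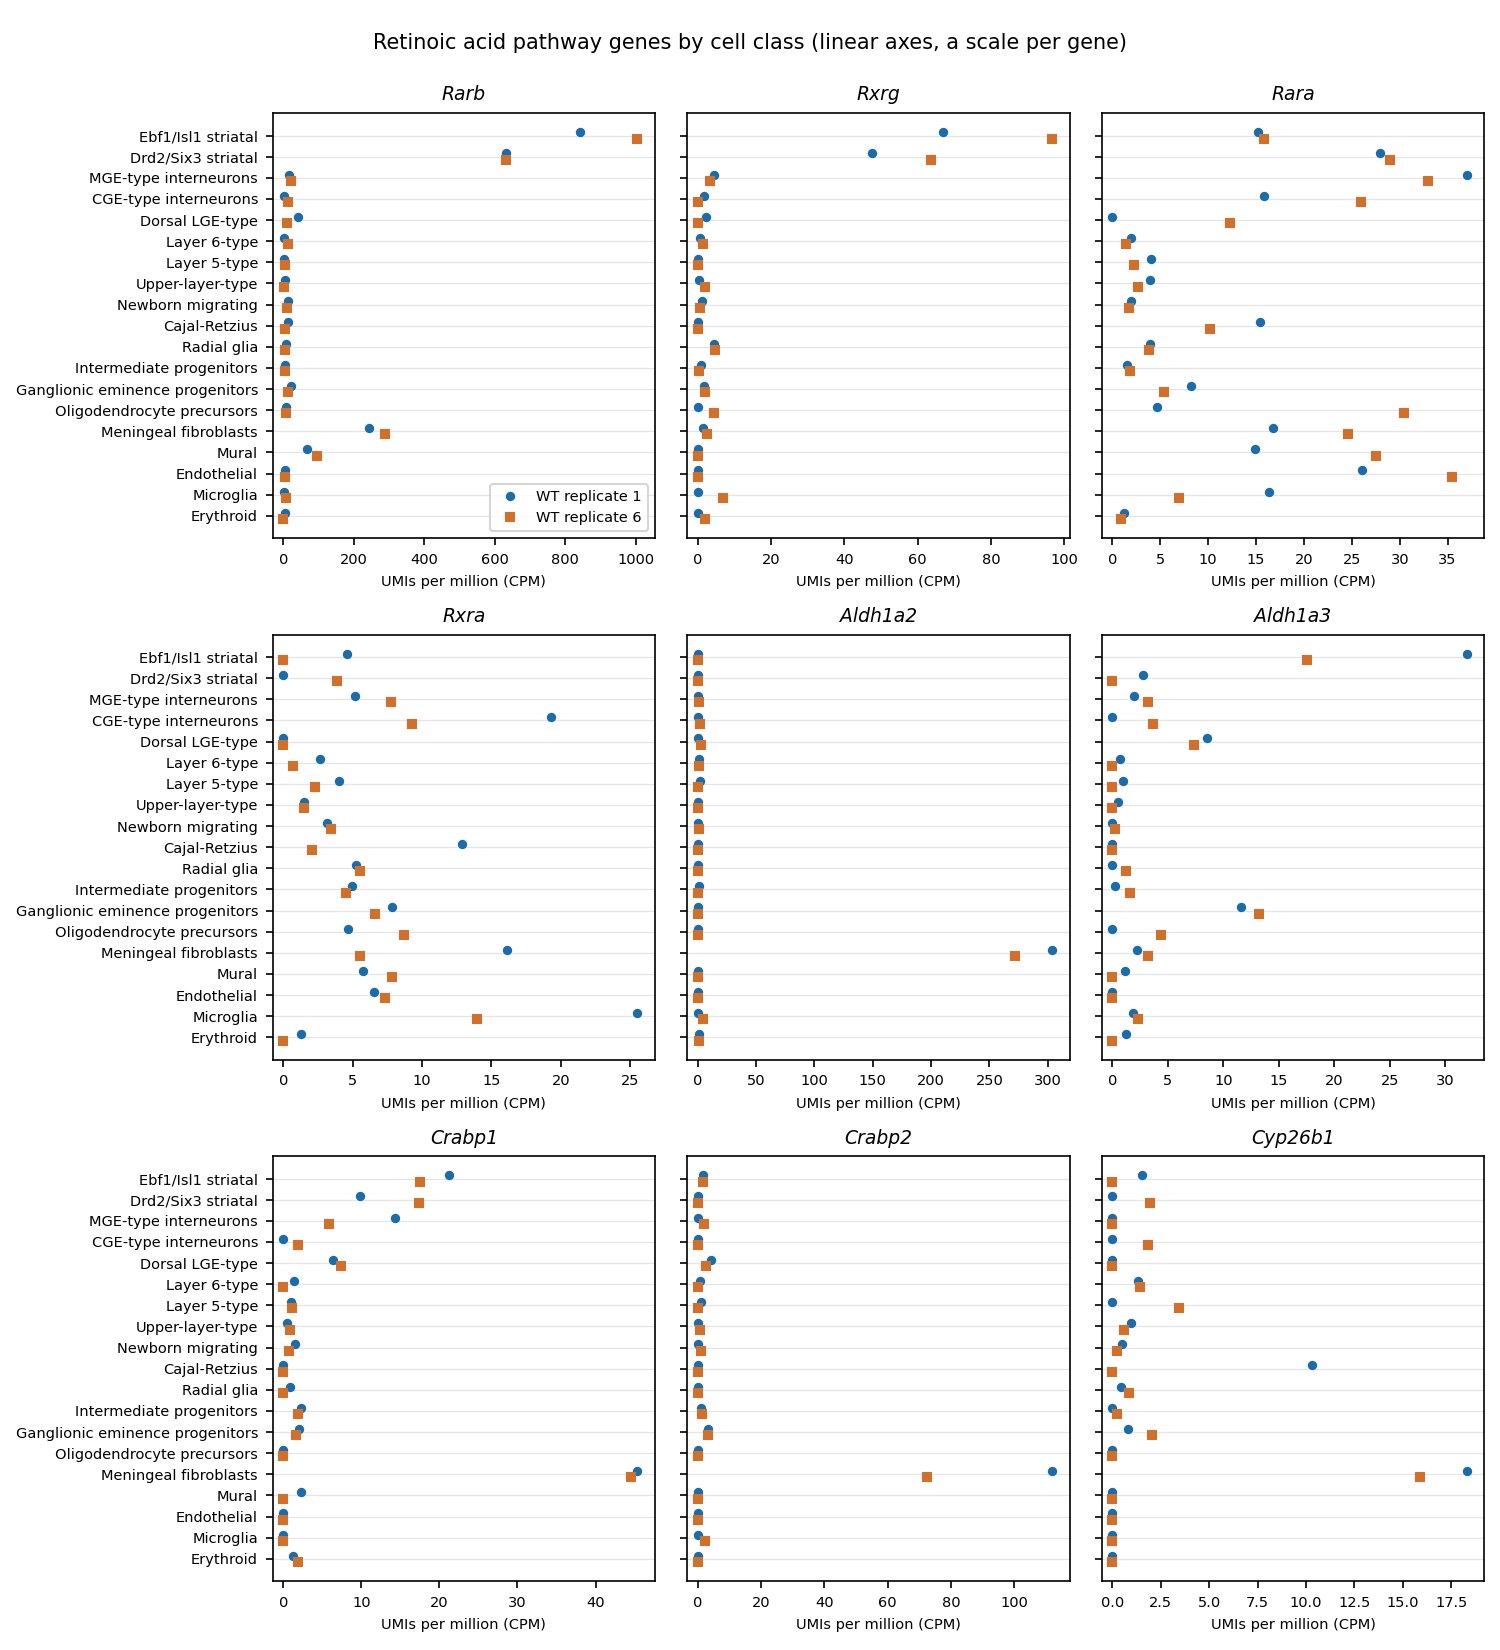
Level of each of the 9 genes (x axis, CPM of the summed class, linear, with a scale of its own per gene) in 19 cell classes (y axis). Circles stand for WT replicate 1 and squares for WT replicate 6. Rarb was high in both striatal classes (631 to 1005 CPM) and in meningeal fibroblasts (244 and 290 CPM), Rxrg in both striatal classes, and Aldh1a2, Crabp2, Crabp1 and Cyp26b1 were highest in meningeal fibroblasts.

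Rarb stood out in striatal projection neurons. Ebf1/Isl1 striatal neurons, gated on Ebf1, Isl1, Tac1 and Drd1, which mark cells of the direct pathway, held 841 and 1005 CPM of Rarb from 553 and 572 UMIs in 107 and 99 cells. In Drd2/Six3 striatal neurons, gated on markers of the indirect pathway, the level was 631 and 632 CPM in 103 and 97 cells. Meningeal fibroblasts came next with 244 and 290 CPM, and then mural cells, the contractile cells of vessel walls, with 68.7 and 95.7 CPM. In this order the ranges of the 2 libraries did not overlap between neighbours. All further classes lay lower, from 42.6 and 9.82 CPM in dorsal LGE-type neurons, where the libraries differed widely on 20 and 4 UMIs, down to 5.08 and 0 CPM in erythroid cells. Cortical excitatory neurons stood at 6.69 and 6.88 CPM.

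Many cells of these classes carried Rarb. Among all striatal neurons it was 64.9% and 58.1%, and in meningeal fibroblasts 83.5% and 88.1%, but fibroblasts were deeper, with a median of 13664 and 12204 UMIs per cell against 6181 and 5083. After each cell was thinned to 2000 UMIs, which left out 5 Ebf1/Isl1 cells, 10 Drd2/Six3 cells and 2 fibroblasts, Rarb was found in 56.2% of Ebf1/Isl1 striatal neurons (95% Wilson interval 49.3% to 62.9%, both libraries together). The share was 41.1% in Drd2/Six3 striatal neurons (34.3% to 48.2%), 42.3% in meningeal fibroblasts (35.6% to 49.3%) and 12.3% in mural cells (8.26% to 17.9%). In erythroid cells 0.295% (0.0521% to 1.65%) remained, with 83 of 422 cells too shallow to be thinned, and in the microglial gate 0% (up to 3.47%). Unthinned shares there were 0.948% at median depths of 2960 and 3626 UMIs, and 1.79% at 8763 and 7482 UMIs. These intervals cover counting error only. Within a class, Rarb was spread unevenly, and the cell with most Rarb held 47 UMIs in Drd2/Six3 neurons and 33 UMIs in Ebf1/Isl1 neurons.

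**Figure D2:**
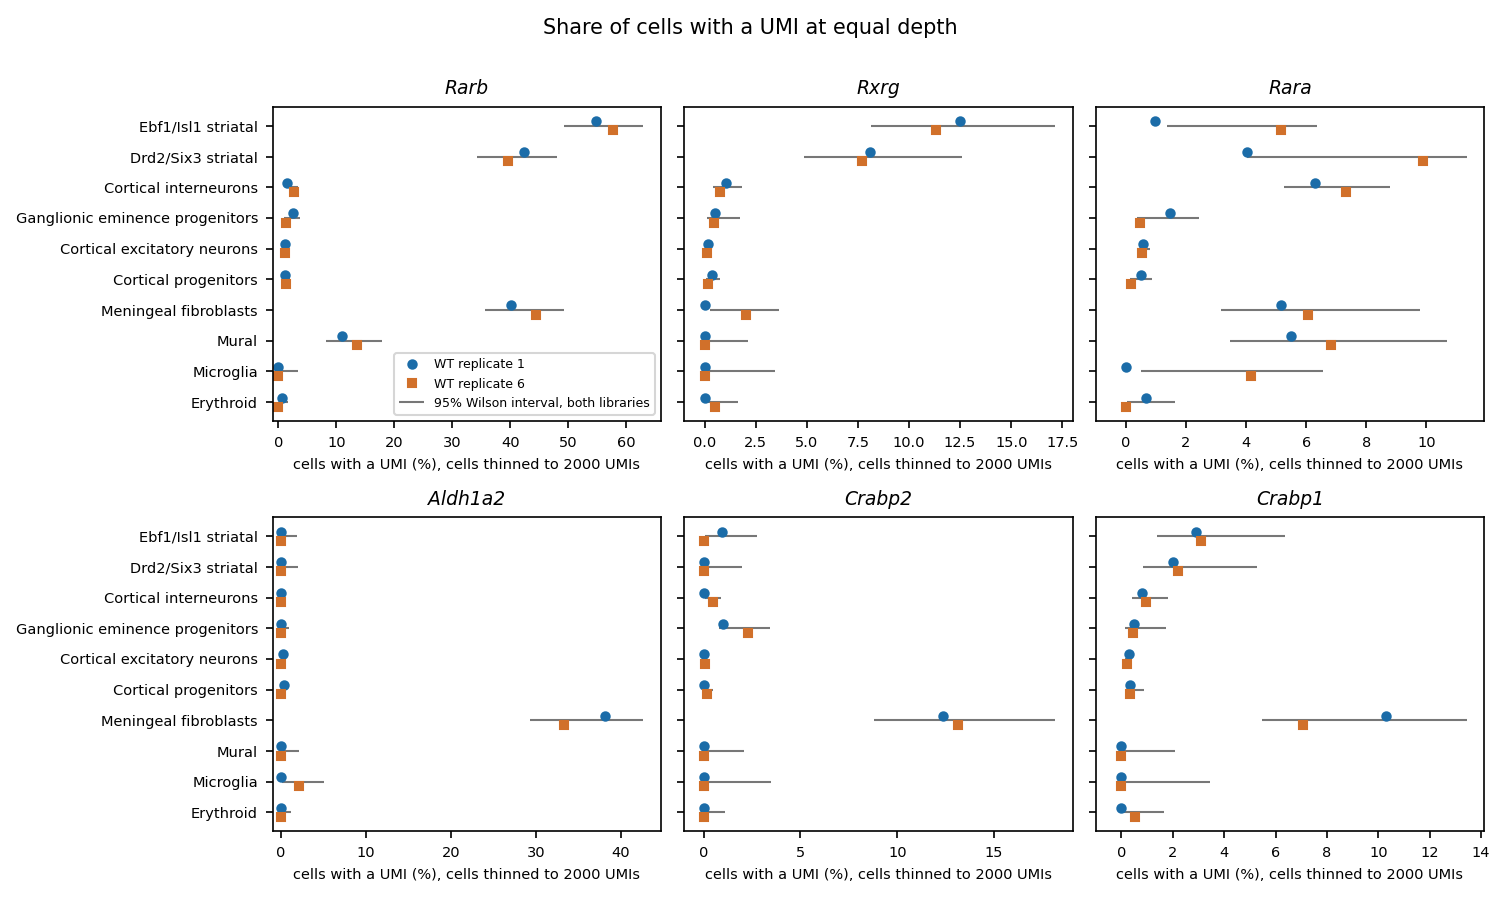
Share of cells with at least 1 UMI (x axis, percent of cells, each thinned to 2000 UMIs) of 6 genes in 10 cell classes (y axis). Circles stand for WT replicate 1, squares for WT replicate 6, and lines for the 95% Wilson interval over both libraries. For Rarb, the striatal classes and meningeal fibroblasts stand between 39.6% and 57.7%, and no library of the microglia or erythroid cells is above 0.671%.

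Rxrg, the RXR gene known from the striatum and pituitary, was highest in the striatal gates. It reached 66.9 and 96.6 CPM in Ebf1/Isl1 striatal neurons and 47.6 and 63.8 CPM in Drd2/Six3 striatal neurons, and the libraries of both classes lay above those of all others. Radial glia, the stem cells of the cortex, were next with 4.38 and 4.67 CPM from 10 and 11 UMIs. In endothelial, mural, layer 5-type and Cajal-Retzius cells no Rxrg UMI was counted in either library. The thinned share was 11.9% (8.16% to 17.2%) in Ebf1/Isl1 neurons and 7.89% (4.84% to 12.6%) in Drd2/Six3 neurons, against 0.153% (0.0743% to 0.316%) in excitatory neurons. In Drd2/Six3 neurons 30.0% and 33.3% of cells with a Rarb UMI also had one of Rxrg, compared with 4.65% and 8.70% of cells without Rarb. In Ebf1/Isl1 neurons the same shares were 23.8% and 38.5% with Rarb, and 18.5% and 14.7% without. Deeper cells have more UMIs of every gene, so these shares are descriptions.

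Rara and Rxra, which encode widely expressed receptors, had low levels in most classes. Rara was highest in MGE-type interneurons, inhibitory neurons born in the medial ganglionic eminence, with 37.0 and 32.9 CPM. Its order below them could not be resolved from endothelial cells with 26.0 and 35.5 CPM, and Drd2/Six3 striatal neurons followed with 28.0 and 29.0 CPM. In Ebf1/Isl1 striatal neurons it was lower than in the Drd2/Six3 kind, with 15.2 and 15.8 CPM, a difference that did not pass the test given below. Excitatory neurons of the cortex held 2.59 and 2.15 CPM of Rara and cortical progenitors 2.37 and 2.62 CPM. Rxra had its highest levels in the microglial gate, 25.5 and 13.9 CPM on 14 and 6 UMIs, and in CGE-type interneurons, from the caudal ganglionic eminence, 19.3 and 9.26 CPM on 11 and 5 UMIs. The ranges of these classes overlapped with each other and with meningeal fibroblasts at 16.1 and 5.57 CPM.

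Aldh1a2, the retinaldehyde dehydrogenase of the meninges, was near 0 outside meningeal fibroblasts. These held 304 and 272 CPM from 415 and 342 UMIs, and 75.3% and 64.4% of their cells had a UMI. The next class by mean, microglia, held 0 and 2 UMIs. No Aldh1a2 UMI was counted in Ebf1/Isl1 striatal neurons, where 3 UMIs would have been 4.56 and 5.27 CPM. After thinning, 35.7% (29.3% to 42.6%) of fibroblasts had Aldh1a2, compared with 0% (up to 1.12%) of erythroid cells and 0.935% (0.165% to 5.11%) of microglia. Gated cells of all classes together contained 80.1% and 91.7% of the Aldh1a2 UMIs in kept cells.

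Crabp2, Crabp1 and Cyp26b1 shared their highest class with Aldh1a2. Crabp2 stood at 112 and 72.4 CPM in meningeal fibroblasts, and the next classes were dorsal LGE-type neurons with 4.26 and 2.45 CPM and ganglionic eminence progenitors with 3.31 and 3.31 CPM. Crabp1 stood at 45.4 and 44.5 CPM in fibroblasts, followed by Ebf1/Isl1 striatal neurons with 21.3 and 17.6 CPM. Its level in MGE-type interneurons, 14.3 and 5.81 CPM, came from 22 and 9 UMIs in 1.70% and 1.87% of cells. The cell with most held 16 of these UMIs in replicate 1 and 4 in replicate 6. CGE-type interneurons had 0 and 1 UMI. Cyp26b1 stood at 18.3 and 15.9 CPM in fibroblasts, where few cells carried it, 6.19% and 6.93%. In Cajal-Retzius cells, early neurons of the cortical surface, all 4 Cyp26b1 UMIs of replicate 1 were in 2.44% of the 41 cells, which is 1 cell, and replicate 6 had none.

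Within meningeal fibroblasts these genes were detected in overlapping but unequal sets of cells. The median fibroblast held 2 Aldh1a2 UMIs in either library and 0 of Crabp1, Crabp2 and Cyp26b1. A cell without a UMI may therefore still hold the mRNA, and the shares below are unthinned. Crabp2 was found in 49.3% and 36.9% of Aldh1a2-positive fibroblasts and in 4.17% and 19.4% of Aldh1a2-negative ones. Depth differed little between these cells in replicate 1, with medians of 13685 and 13380 UMIs, and more in replicate 6, with 13644 and 10354 UMIs. Of the Cyp26b1-positive fibroblasts, 6 of 6 in replicate 1 and 6 of 7 in replicate 6 had a Crabp2 UMI, and equally many had one of Aldh1a2. Crabp2-positive cells were deeper than the others, with medians of 14588 and 13010 UMIs against 13158.5 and 11815.5 UMIs. Crabp1 did not follow Aldh1a2, being found in 28.8% and 33.8% of Aldh1a2-positive and in 29.2% and 27.8% of Aldh1a2-negative fibroblasts. Crabp2 was found in 28.6% and 25.0% of Crabp1-positive fibroblasts and in 42.0% and 33.3% of the others. Rarb was common in either kind, at 87.7% and 89.2% of Aldh1a2-positive and 70.8% and 86.1% of Aldh1a2-negative cells.

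Aldh1a3, the retinaldehyde dehydrogenase known from the lateral ganglionic eminence, had another distribution than Aldh1a2. It was highest in Ebf1/Isl1 striatal neurons with 31.9 and 17.6 CPM, followed by ganglionic eminence progenitors with 11.6 and 13.3 CPM and dorsal LGE-type neurons with 8.52 and 7.36 CPM. These ranges did not overlap between neighbours. The striatal level rested on few cells, since 21 and 10 UMIs came from 6 and 3 cells. Of these cells 5 and 2 had no Rarb UMI, so Aldh1a3 was found in 18.5% and 5.88% of Rarb-negative and in 1.25% and 1.54% of Rarb-positive Ebf1/Isl1 neurons. In the progenitors 28 and 32 UMIs were spread over 5.88% and 5.53% of cells. Meningeal fibroblasts held 2.19 and 3.18 CPM of Aldh1a3, on 3 and 4 UMIs.

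Cyp26a1 was not counted in any gated cell. In 13 classes that together held 38287127 and 38631279 UMIs it had 0 UMIs, and 3 UMIs would have been 0.0784 and 0.0777 CPM. Its window and that of Rarb carried the DR5 elements shown above.

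Differences between classes were tested on UMIs summed per library and class, 2 sums against 2, with edgeR's quasi-likelihood test, and p-values were adjusted by the Benjamini-Hochberg method over all genes tested in a comparison. A gene too low in both classes was left out by the filter, and a gene that passed it only through the class in which it is high had to differ. Counts of genes called are therefore given as an account and not as support, beside the share of all tested genes called in either direction at an adjusted p under 0.05.

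The first comparison asked how striatal neurons, which form below the cortex, differ from cortical excitatory neurons, which use glutamate. Of the 7 genes tested, 5 were higher in striatal neurons and none lower, while 22.8% of all 14496 tested genes were called. Rarb stood at 729 and 802 CPM in striatal neurons and at 6.69 and 6.88 CPM in excitatory neurons, a log2 difference of 6.77 ± 0.11 (SE, edgeR adjusted p = 1.66e-10). The libraries of each group lay close together and far from the other group. Rxrg differed by 6.17 ± 0.26 (edgeR adjusted p = 3.91e-08), from 58.5 and 79.5 CPM against 0.684 and 1.12 CPM. Rara was higher by 3.27 ± 0.27, Crabp1 by 3.71 ± 0.34 and Aldh1a3 by 4.86 ± 0.51, the last with 20.2 and 9.40 CPM in striatal neurons and lost with 1 more marker per gate (adjusted p = 0.146). Rxrg and Aldh1a3 passed the filter only with the striatal sums, so their p-values are no support. Rxra, with 5 striatal UMIs in all, had a difference of -0.35 ± 0.61, and Cyp26b1, with 4, of 0.55 ± 0.80, and neither passed (edgeR adjusted p = 0.742 and 0.687). Aldh1a2 and Crabp2 were not tested, with 1 and 2 striatal UMIs and ratios of 0.909 (exact binomial interval 0.0218 to 5.80) and 1.72 (0.193 to 7.17) to excitatory neurons. Such intervals, here and below, treat each UMI as independent. They cover counting error only and leave out the spread between cells and between libraries.

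Striatal neurons were next compared with cortical interneurons, which are inhibitory as well. Here 6 of the 9 genes were tested, 3 were higher in striatal neurons and 1 lower, beside 16.5% of 10912 genes called. Rarb was higher by 5.47 ± 0.17 on the log2 scale (edgeR adjusted p = 3.13e-08), since interneurons held 13.7 and 20.1 CPM. Rxrg was higher by 4.41 ± 0.31, with 3.79 and 2.39 CPM in interneurons. For Aldh1a3 the difference was 2.63 ± 0.54 (edgeR adjusted p = 0.00721), and it was 3.63 within replicate 1 and 1.45 within replicate 6. Rxra was the gene lower in striatal neurons, at 1.95 and 1.71 CPM against 9.0 and 8.14 CPM, a difference of -2.19 ± 0.51 (edgeR adjusted p = 0.0142) on 5 and 36 UMIs. The Rxra call was lost with DESeq2 (adjusted p = 0.360), and both it and that of Aldh1a3 without the filter on low counts (adjusted p = 0.0650 and 0.126). Rxrg and Aldh1a3 passed the filter through striatal neurons and Rxra through interneurons, so their direction was fixed and their p-values are no support. Rara differed by -0.42 ± 0.21 and did not pass (edgeR adjusted p = 0.217). Crabp1 differed by 1.04 ± 0.41 without passing (edgeR adjusted p = 0.122), and in the fit with a replicate block for library its adjusted p was 0.0347.

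Cortical interneurons differed from excitatory neurons in 6 of 7 tested genes, all higher in interneurons, beside 32.9% of 15011 genes called. The largest difference was that of Rara, 31.3 and 31.1 CPM against 2.59 and 2.15 CPM, or 3.66 ± 0.21 on the log2 scale (edgeR adjusted p = 2.51e-06). Here the libraries of each group nearly coincided. Rxra was higher by 1.84 ± 0.31 and Rarb by 1.26 ± 0.22 (edgeR adjusted p = 0.00230 and 0.00291), and for Rarb both groups were far below the striatal level. Crabp1 was higher by 2.64 ± 0.43 (edgeR adjusted p = 0.00178), and with 1 more marker per gate it did not pass (adjusted p = 0.274). Most of its interneuron UMIs were in the MGE-type cells, 16 of them in 1 cell of replicate 1. Rxrg and Aldh1a3 were higher by 1.70 ± 0.52 and 2.16 ± 0.67 on 13 and 10 interneuron UMIs (edgeR adjusted p = 0.0357 and 0.0369), and DESeq2 called neither (adjusted p = 0.105 and 0.0960). Their differences within the libraries were 2.51 and 1.20 for Rxrg and 1.23 and 3.36 for Aldh1a3. Both genes passed the filter only with the interneuron sums, so their p-values are no support. Cyp26b1 had 1 UMI in interneurons and a ratio of 0.243 (0.00601 to 1.43), with an edgeR adjusted p of 0.163.

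**Figure D3:**
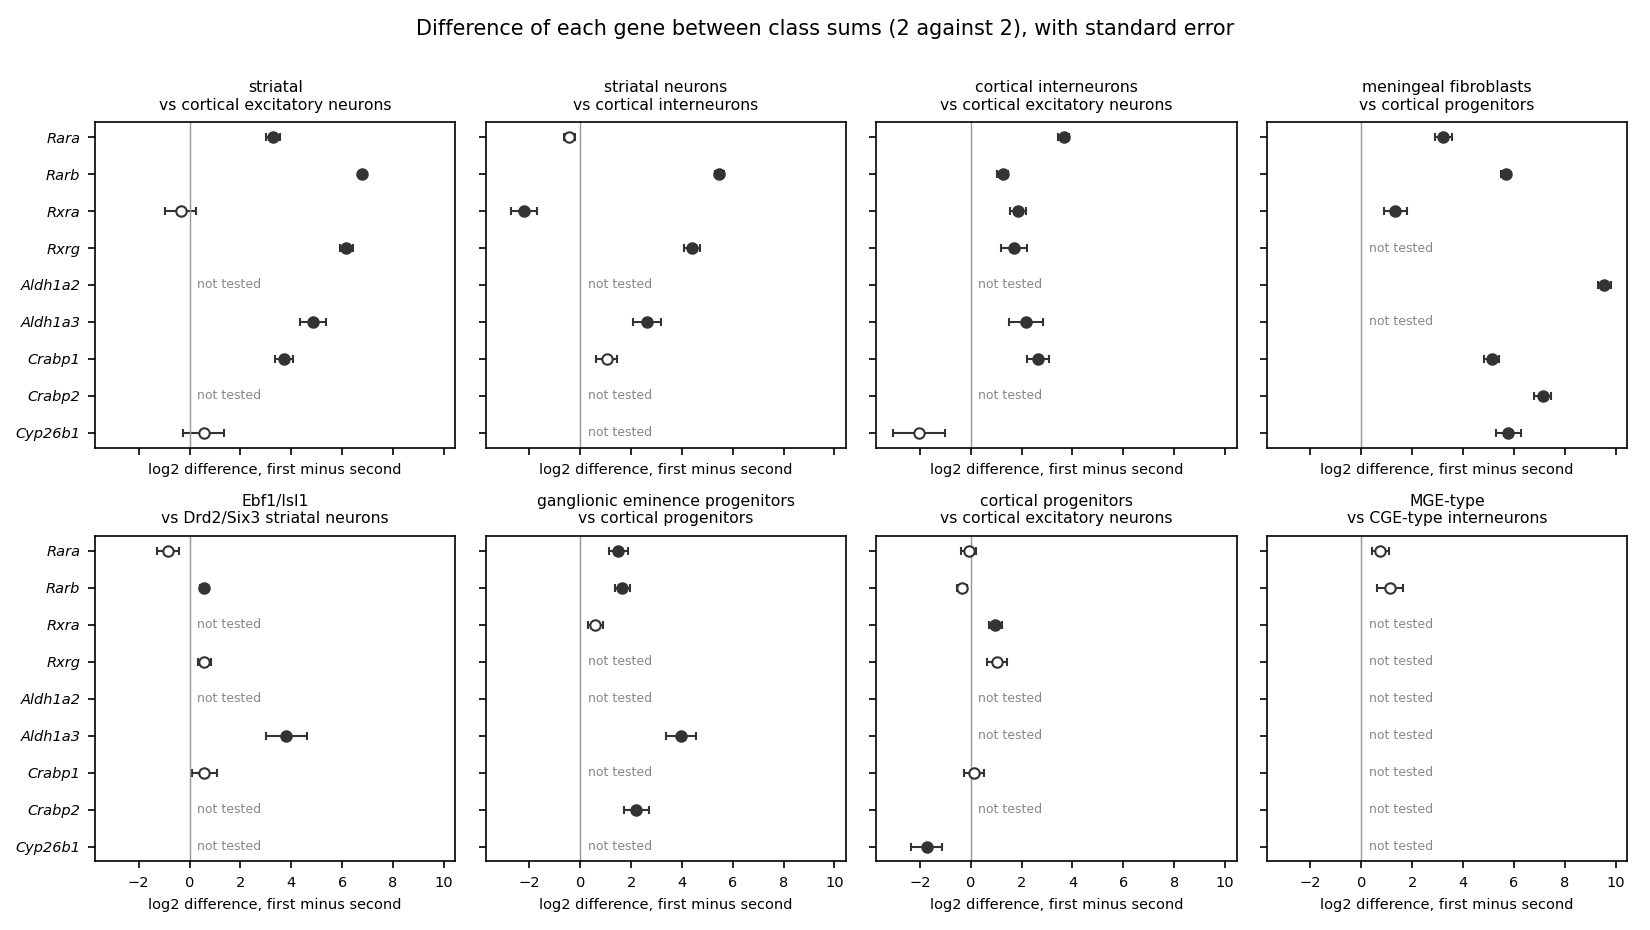
Log2 difference of each gene between class sums (x axis, first-named minus second-named class) in 8 comparisons of 2 against 2 libraries, with 1 standard error. Filled points passed an adjusted p of 0.05, open points did not, and genes left out by the filter are marked as not tested. The largest difference is that of Aldh1a2 between meningeal fibroblasts and cortical progenitors, at 9.56.

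Meningeal fibroblasts and cortical progenitors, radial glia and intermediate progenitors together, stand for the source and a receiver of meningeal retinoic acid in the background given above. Of the 9 genes 7 were tested and each was higher in fibroblasts, beside 50.6% of 13403 genes called, so that differences between these classes were common. Aldh1a2 stood at 304 and 272 CPM against 0.632 and 0.164 CPM, a log2 difference of 9.56 ± 0.25 (edgeR adjusted p = 1.59e-08), and the ratio of pooled levels was 718 (exact binomial interval 306 to 2217). Crabp2 was higher by 7.13 ± 0.33, Cyp26b1 by 5.79 ± 0.50 and Crabp1 by 5.12 ± 0.28. Progenitors had 9, 4 and 18 UMIs of these genes, and 5 of Aldh1a2. These 4 genes, and Rara as well, passed the filter through the fibroblasts, so their direction was fixed and their p-values are no support. Rarb, a receptor gene, was higher in fibroblasts by 5.67 ± 0.17 (edgeR adjusted p = 2.29e-08), with 6.64 and 5.24 CPM in progenitors. Rara was higher by 3.23 ± 0.34 and Rxra by 1.33 ± 0.45 (edgeR adjusted p = 0.0340), where the fibroblast libraries stood at 16.1 and 5.57 CPM and the progenitor libraries at 5.06 and 4.91 CPM. Within replicate 6 the Rxra difference was 0.26, against 1.68 within replicate 1, and DESeq2 did not call it (adjusted p = 0.187). The 7 radial glia markers summed to 922 and 871 CPM in the fibroblast class, with none at 0, against 1066 and 1057 CPM in the progenitors, and the 7 fibroblast markers to 10.3 and 4.26 CPM in the progenitors. Their part in the result was not tested. Rxrg and Aldh1a3 had 5 and 7 fibroblast UMIs and were not tested, with ratios of 0.912 (0.273 to 2.41) and 3.32 (1.07 to 9.66).

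Between the striatal kinds fewer differences passed. Of 5 tested genes 2 were called, beside 5.88% of 7819 genes. Rarb was higher in Ebf1/Isl1 than in Drd2/Six3 neurons by 0.56 ± 0.15 on the log2 scale (edgeR adjusted p = 0.0313), with 841 and 1005 against 631 and 632 CPM. Aldh1a3 was higher by 3.81 ± 0.81 (edgeR adjusted p = 0.00430), on 31 against 2 UMIs, a ratio of 15.6 (exact binomial interval 3.96 to 134). Aldh1a3 passed the filter through the Ebf1/Isl1 class, so its direction was fixed and its p-value is no support. Both calls depended on the processing and were lost with DESeq2, which gave adjusted p of 0.273 for Rarb and 0.183 for Aldh1a3. Rxrg differed by 0.58 ± 0.26, Crabp1 by 0.58 ± 0.50 and Rara by -0.85 ± 0.42, and none passed (edgeR adjusted p = 0.339, 0.779 and 0.398). Markers of other cells also moved between these classes. The 7 radial glia markers summed to 53.2 and 128 CPM in Ebf1/Isl1 and to 444 and 464 CPM in Drd2/Six3 neurons, and the 5 microglial markers to 131 and 100 against 18.2 and 19.3 CPM, with 2 and 3 of the 5 at 0 in the Ebf1/Isl1 class. Their part in the result was not tested.

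Progenitors were compared by origin as well, those of the ganglionic eminences, which give rise to inhibitory neurons, with those of the cortex. Of 5 tested genes 4 were higher in ganglionic eminence progenitors, beside 28.3% of 12951 genes called. Aldh1a3 differed most, 11.6 and 13.3 CPM against 0.158 and 1.47 CPM, or 3.96 ± 0.58 on the log2 scale (edgeR adjusted p = 0.00222). Crabp2 was higher by 2.21 ± 0.49, Rarb by 1.66 ± 0.31 and Rara by 1.51 ± 0.38 (edgeR adjusted p = 0.0138, 0.00613 and 0.0227). All were low, Rarb standing at 22.3 and 13.7 CPM against 6.64 and 5.24 CPM and Crabp2 having 16 against 9 UMIs. Aldh1a3 and Crabp2 passed the filter through the ganglionic eminence progenitors, so their direction was fixed and their p-values are no support. Within the libraries, the Aldh1a3 difference was 5.63 and 3.11. Without likely doublets Rarb no longer passed, at 0.61 (adjusted p = 0.193), and DESeq2 called neither Rara nor Crabp2 (adjusted p = 0.167 and 0.177). Rxra differed by 0.60 ± 0.30 and did not pass (edgeR adjusted p = 0.185).

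Cortical progenitors and cortical excitatory neurons, their progeny, differed in 2 of 6 tested genes, beside 60.8% of 15552 genes called. Rxra was higher in progenitors by 0.96 ± 0.26 (edgeR adjusted p = 0.0127), with 5.06 and 4.91 against 2.0 and 2.57 CPM. Cyp26b1 was lower by 1.73 ± 0.59 (edgeR adjusted p = 0.0347), on 4 UMIs in progenitors and 41 in neurons, and the differences within the libraries were -2.01 and -0.88. DESeq2 called neither gene (adjusted p = 0.0956 and 0.259). Cyp26b1 passed the filter through the excitatory neurons, so its direction was fixed and its p-value is no support. Rarb, Rara and Crabp1 differed by -0.35 ± 0.19, -0.09 ± 0.30 and 0.14 ± 0.39, and none passed. Rxrg, at 1.04 ± 0.40, missed the threshold (edgeR adjusted p = 0.0527) and passed it when library entered as a replicate block (p adjusted to 0.0383). It passed as well without 4 cells of the radial glia gate of replicate 1 that held most Ttr UMIs (adjusted p = 0.0468), a setting chosen after the data were seen. Whether these 4 cells are radial glia was not tested. Rxrg passed the filter only with the progenitor sums, so its p-values are no support.

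MGE-type and CGE-type interneurons differed in none of the 2 genes tested, beside 7.33% of 9438 genes called by edgeR, and DESeq2 called none of the 4 to which it gave an adjusted p. Both genes had an unadjusted p under 0.05 (0.0356 and 0.0444). Rara differed by 0.75 ± 0.32, with 37.0 and 32.9 CPM in MGE-type against 15.8 and 25.9 CPM in CGE-type cells (edgeR adjusted p = 0.239). Rarb differed by 1.12 ± 0.51, from 17.5 and 22.0 against 3.51 and 14.8 CPM (edgeR adjusted p = 0.274). Crabp1, left out by the filter, had 31 UMIs in MGE-type and 1 in CGE-type cells, a ratio of 11.1 (exact binomial interval 1.86 to 454). This ratio rests on 5 and 6 positive MGE-type cells, and 1 cell of replicate 1 held 16 of the UMIs. Rxra, left out as well, had 20 against 16 UMIs, a ratio of 0.449 (0.221 to 0.927). Both intervals cover counting error only and are no test of a difference.

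Another 29 genes of retinoid transport, conversion, storage and receptor cofactors were followed beside the 9. In striatal against excitatory neurons 6 of 20 tested were higher and 3 lower, beside 22.8% of all genes called, with a median log2 difference of -0.04 against -0.02 over all tested genes. Stra6, the membrane retinol transporter, was higher in striatal neurons by 1.89 ± 0.54 on 11 UMIs. Nrip1, a receptor corepressor, was lower by 1.505 ± 0.11. Against interneurons 1 of 16 was higher and 1 lower, beside 16.5% of all genes, the lower one being the coactivator gene Ncoa2, by 0.44 ± 0.11. Interneurons against excitatory neurons had 5 of 21 higher and 5 lower, beside 32.9%, Rarg, the remaining RAR gene, being lower by 1.74 ± 0.44 on 7 UMIs.

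Between meningeal fibroblasts and cortical progenitors, 11 of 22 tested genes of this list were higher in fibroblasts and 2 lower, beside 50.6% of all genes called, with a median log2 difference of 0.37 against -0.03 over all tested genes. Aldh1a1, another retinaldehyde dehydrogenase, was higher in fibroblasts by 6.65 ± 0.55, Stra6 by 5.24 ± 0.31 and Tgm2, a response gene, by 4.93 ± 0.37. Ttr, the retinol and thyroid hormone carrier made by the choroid plexus, was among the lower genes. However, 18105 of the 18124 Ttr UMIs of the radial glia gate in replicate 1 came from 4 cells, which may be other cells than radial glia. Replicate 6 had 4 Ttr UMIs in this gate. The Ttr difference was -7.90 within replicate 1 and 0.17 within replicate 6. Ebf1/Isl1 against Drd2/Six3 neurons had 2 of 12 higher and none lower, beside 5.88% of all genes, and among the higher was the coactivator gene Ncoa1, by 1.30 ± 0.17. MGE-type against CGE-type interneurons had 2 of 14 higher and none lower, beside 7.33%, with Ncoa1 higher by 0.74 ± 0.15. Ganglionic eminence against cortical progenitors had 5 of 18 higher and 3 lower, beside 28.3%, Dhrs3, which turns retinaldehyde back to retinol, being lower by 3.64 ± 0.46. Cortical progenitors against excitatory neurons had 6 of 20 higher and 4 lower, a smaller share than the 60.8% of all genes called, with Dhrs4 higher by 2.21 ± 0.09 and Nrip1 lower by 2.03 ± 0.09, and Ttr among the higher ones, with most of its UMIs in the same 4 cells.

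Genes with the most similar levels were sought over the 19 classes, as the highest Pearson correlation of log2(CPM + 10) among 7776 genes that are not gate markers. Rarb was closest to Dchs2 (r = 0.86), Rxrg (r = 0.81) and Kirrel (r = 0.79), and Rxrg to Gm14133 (r = 0.95), Kcnh1 (r = 0.86) and Oprm1 (r = 0.84). The synthesis and binding genes of the fibroblasts had near-identical partners, Slc22a6 (r = 0.999), Wnt6 (r = 0.998) and Osr1 (r = 0.998) for Aldh1a2 and Slc22a6, Gjb6 and Wnt6 (r = 0.99 each) for Crabp2. Such values mainly record that a gene is high in 1 class, and the classes share 2 libraries. Cyp26b1 was closest to Islr (r = 0.93), Aldh1a3 to Slc18a2 (r = 0.80), Crabp1 to Rarb (r = 0.81), Rara to Ptprm (r = 0.85) and Rxra to Snx8 (r = 0.88).

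Many UMIs of these genes lay in cells outside every gate. Gated cells contained 44.0% and 45.3% of the Rarb UMIs of kept cells, 33.8% and 42.4% of those of Rxrg and 30.7% and 33.2% of those of Aldh1a3. Ungated cells were therefore sorted by how many of the 12 striatal markers they showed. Rarb stood at 23.5 and 18.3 CPM in ungated cells with none, at 89.8 and 103 CPM with 1, at 245 and 246 CPM with 2, and at 316 and 369 CPM with 3 or more. The last group, 163 and 125 cells, had failed the striatal gate on another count and stayed below the gated striatal neurons. Rxrg went from 2.86 and 2.60 CPM with no marker to 38.0 and 42.7 CPM with 3 or more, whereas Aldh1a3 was highest with 2 markers, going from 2.79 and 2.53 CPM with none to 20.3 and 20.9 CPM with 2 and 16.1 and 19.1 CPM with 3 or more. Median depth rose along these groups too, from 3910 and 4107 to 8546 and 8495 UMIs per cell, and deeper cells show more markers.

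**Figure D4:**
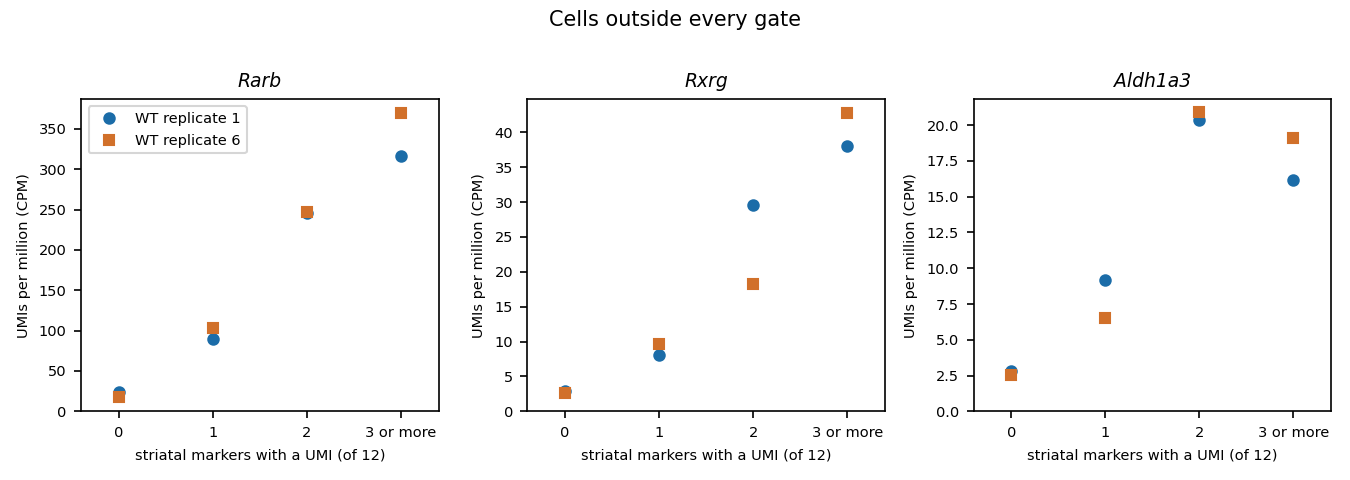
Level of Rarb, Rxrg and Aldh1a3 (y axis, CPM, linear from 0) in kept cells outside every gate, by the number of 12 striatal markers with a UMI (x axis). Circles stand for WT replicate 1 and squares for WT replicate 6. Rarb stands at 23.5 and 18.3 CPM in cells without a striatal marker and at 316 and 369 CPM in those with 3 or more.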

How the data were processed

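The deposited matrices hold raw UMI counts per gene and cell, made by the authors with Cell Ranger 7.0.0 on mm10 per the labels. The annotation and the use of intronic reads are not given in the sources used here. Class sums per library were compared with edgeR 4.0.16 in R 4.3.3 (TMM, filterByExpr, glmQLFit, glmQLFTest, two-sided, Benjamini-Hochberg). The test was also run on simulated counts, drawn with a common spread for all genes and independent sums. Its outcome there is not reported here and is no support. CPM are counts per 1000000 UMIs of a class sum. Gates asked for at least 3 markers of a class in general (4 of 7 for fibroblasts and radial glia; for striatal neurons 3 of 12, or 2 of a single kind, with 2 of 6 GABAergic genes) and barred those of other classes. Their thresholds were set after the depths were seen, and cells passing several gates, 2 and 3, were left out. Doublets were kept, and the libraries shared 59 barcodes. The libraries differed by a chi-square of 18.4 per degree of freedom over 19959 genes, taken on totals over all classes. Different shares of the classes enter this value, so it cannot tell separate embryos from separate loadings of 1 preparation. The libraries were treated as 2 samples. Since both sums of a library come from 1 cell preparation, the pairing was checked, and deviations of same-library sums correlated at 0.14 to 0.49. All 9 genes are given in every comparison; of the 29 other genes at most the 3 largest called differences in each direction are named, and 3 like genes per gene at most. A called gene of that list is not reported here. The genes, lists and tests were chosen with earlier results of these data known. Of the genes followed, 2 had no promoter window.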

Additional observations from a re-analysis of the deposited data

How the results depend on the processing

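Every count of called genes between striatal and excitatory neurons, and between meningeal fibroblasts and cortical progenitors, stayed within 1.5 times its value under all alternatives run, and MGE-type against CGE-type cells kept 0. Striatal neurons against interneurons fell from 4 called genes to 2 with no filter on low counts and to 2 with 1 more marker per gate, and interneurons against excitatory neurons from 6 to 3 with 1 more marker. The comparison of the striatal kinds fell from 2 called genes to 0 with DESeq2 (1.42.0), with cells of 3000 to 30000 UMIs and under 5% mitochondrial UMIs, and with 1 more marker, and to 1 without likely doublets and with all classes in a single fit. Ganglionic eminence against cortical progenitors fell from 4 to 2 with DESeq2 and with no filter and to 1 with 1 more marker. Cortical progenitors against excitatory neurons fell from 2 to 0 with DESeq2 and to 1 with no filter, the narrower cell filter and the single fit. With 1 more marker fewer cells and genes remained, and the other causes were not tested. No called difference of the 9 genes changed sign under these alternatives or within a single library. With the library as a replicate block (pairing by library) the counts were 5, 5, 6, 7, 2, 4, 3 and 0 in the order of the report, and the calls gained were Crabp1 in striatal neurons against interneurons and Rxrg in cortical progenitors.

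Over all genes, calls between striatal neurons and interneurons went from 1801 to 833 with DESeq2, 713 with no filter and 1007 with 1 more marker. Those between the striatal kinds went from 460 to 226 with DESeq2 and 133 with 1 more marker. MGE-type against CGE-type cells went from 692 to 328, 129 and 377 under the same 3 settings, and ganglionic eminence against cortical progenitors from 3668 to 2144 with DESeq2 and 2034 with no filter. With 1 more marker, striatal against excitatory neurons went from 3306 to 1750 and interneurons against excitatory neurons from 4942 to 3274. Without TMM scaling the median log2 difference of all genes moved from -0.03 to -0.23 between fibroblasts and progenitors and from -0.02 to 0.14 between progenitors and excitatory neurons, and the share of calls that were higher from 52.6% to 40.7% and from 50.3% to 61.2%. With DESeq2 the median was 0.14 in both comparisons of inhibitory with excitatory neurons. With 1 library left out no count could be made, since no residual degrees of freedom remain. Sums of 1 to 10 UMIs limit most calls of Cyp26b1, Aldh1a3 and Crabp2. Of the Rxra calls, such sums enter that of striatal neurons against interneurons, with 5 striatal UMIs. They also enter that of fibroblasts against progenitors, with 7 fibroblast UMIs in replicate 6.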
